A study of Mus musculus with 2 samples.

Results

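The genes described here are 10 genes outside the surfactant and annexin groups whose values were at least 1.5-fold higher in embryonic mouse lung labelled as knockout for Etv4 and Etv5 than in wild type lung: Dpep2, Cpxm2, Edil3, Phlda2, Tmem171, Atp2a3, Ildr2, Muc4, Chrm3 and Ndnf. They were chosen by that same difference, among 19938 genes that had a probe set annotated with exactly 1 gene symbol, so the differences below describe the genes and test nothing. All 10 were found, on 11 probe sets, and none of their symbols occurred on a probe set with several symbols. Both groups were whole lungs of embryos at E13.5, 1 group wild type and the other Etv4;5 knockout, and the labels name no other allele or agent. One title shortens the knockout to CKO, and the sources used here give no Cre line, no driver and no deleted exon for either gene. RNA of 3 samples per group was pooled in equal amounts before hybridisation, so each group was 1 Affymetrix array, with no replicates, and every value compares those 2 pools. No SD, interval or p-value can be given, and the number of arrays limits the precision.

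Etv4 and Etv5 are ETS transcription factors of the PEA3 subfamily. In the embryonic lung they are expressed in the distal epithelial tips, where fibroblast growth factor signalling induces them. The 10 genes belong to no single pathway. They encode secreted or surface enzymes and matrix proteins (Dpep2, Cpxm2, Edil3, Ndnf), membrane proteins of epithelia and signalling (Muc4, Ildr2, Chrm3, Atp2a3, Tmem171) and an imprinted intracellular growth regulator (Phlda2).

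The deposited values were read as log2 values, and every difference is the knockout value minus the wild type value, in log2 units. Genes were called measured if their higher value reached the median of the array it came from (7.60 for wild type, 7.58 for knockout), which kept 11045 genes. Of these, 19 (0.172%) were at least 1.5-fold higher in the knockout pool, a log2 difference of 0.585, and 6 (0.0543%) at least 2-fold higher. All 10 genes were measured, but 5 of them (Dpep2, Cpxm2, Atp2a3, Ildr2, Muc4) lay under the median in wild type and passed through their knockout value alone, so their passing carries no information. By the choice of the genes all 10 exceeded 1.5-fold. Of them 3 also exceeded 2-fold. The median of the 10 differences was 0.88, which by that choice had to exceed the 0.00 of all measured genes. Of the targeted genes, Etv4 stood at 7.59 in wild type and 6.96 in knockout, too dim to count as measured. Etv5 stood at 11.51 and 11.28 on its brighter probe set, and that difference of -0.23 lay at the edge of the central 95% of measured genes (-0.22 to 0.20). The other Etv5 probe set differed by -0.24. Sex-linked genes differed between the pools too (Xist at 12.34 in wild type and 5.74 in knockout). The Y-linked Uty, Eif2s3y and Kdm5d were higher in the knockout pool, by 0.64, 0.53 and 0.53. The part of the sex difference in the values below cannot be told apart from that of the genotype.

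**Figure D1:**
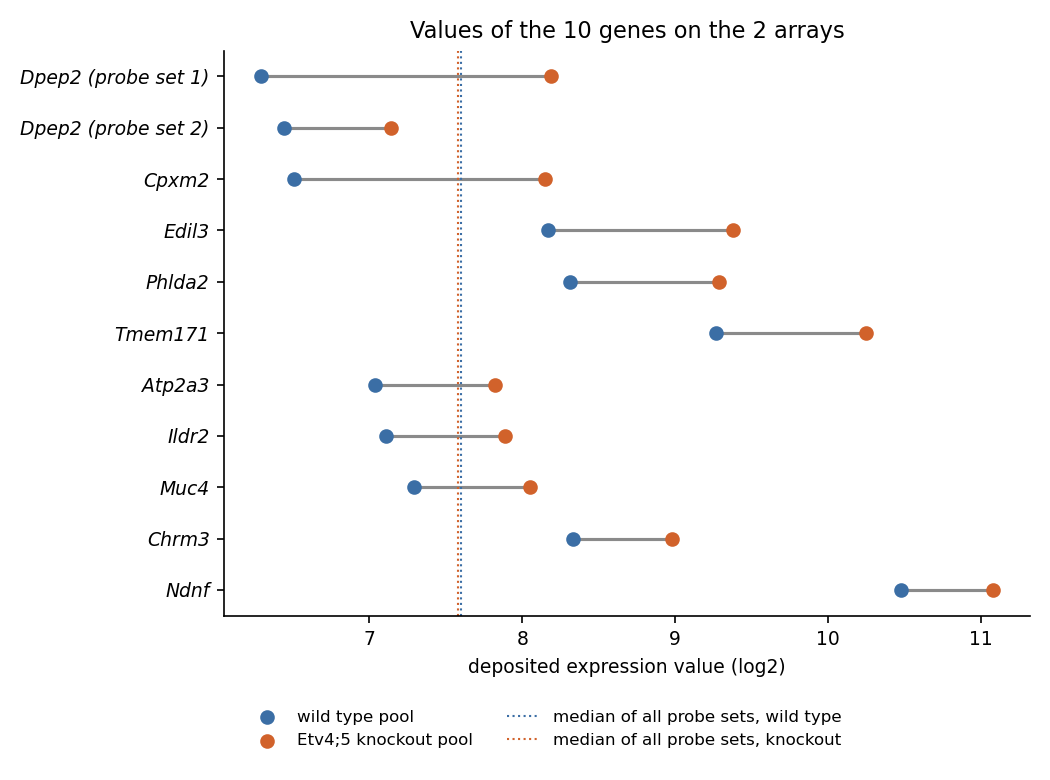
Deposited log2 value (x axis) of each of the 11 probe sets of the 10 genes (rows) on the wild type array (blue) and the knockout array (orange), joined by a line, with the array medians dotted. Every orange point lies to the right of its blue point, and the blue points of Dpep2, Cpxm2, Atp2a3, Ildr2 and Muc4 lie left of the medians. The genes were chosen for higher knockout values.

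ETS factors bind DNA at a GGAA core, and the windows upstream of the genes were searched for it. RefSeq promoter sequences of the build GRCm38.p6 matched 6 of the 10 genes (Cpxm2, Phlda2, Atp2a3, Ildr2, Muc4, Chrm3), and no sequence is shown for Dpep2, Edil3, Tmem171 and Ndnf. The 250 bases before the annotated start were searched on both strands for GGAA, for AGGAAG (a PEA3 motif) and for CCGGAA. Both longer motifs contain GGAA. The 3 windows that held a longer motif are shown 5′ to 3′ on the gene's own strand, with every match in capitals, where TTCC is GGAA on the opposite strand. They lie at chr7:132154742-132154991 (minus strand, Cpxm2), chr11:72960919-72961168 (plus strand, Atp2a3) and chr13:10360804-10361053 (minus strand, Chrm3).
Cpxm2: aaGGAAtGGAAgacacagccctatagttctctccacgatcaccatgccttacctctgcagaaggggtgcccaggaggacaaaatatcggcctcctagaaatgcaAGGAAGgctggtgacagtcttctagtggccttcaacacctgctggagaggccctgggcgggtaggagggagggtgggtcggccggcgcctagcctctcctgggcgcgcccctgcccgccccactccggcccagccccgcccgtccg
Atp2a3: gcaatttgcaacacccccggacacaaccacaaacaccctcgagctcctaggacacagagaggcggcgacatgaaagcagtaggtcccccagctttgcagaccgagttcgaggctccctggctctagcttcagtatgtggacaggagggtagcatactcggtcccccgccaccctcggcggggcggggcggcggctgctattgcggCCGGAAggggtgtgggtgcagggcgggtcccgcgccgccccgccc
Chrm3: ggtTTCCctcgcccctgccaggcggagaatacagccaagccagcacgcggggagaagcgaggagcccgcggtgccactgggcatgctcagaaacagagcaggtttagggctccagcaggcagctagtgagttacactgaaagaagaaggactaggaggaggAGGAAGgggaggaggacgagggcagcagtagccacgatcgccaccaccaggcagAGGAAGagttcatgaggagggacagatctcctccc

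GGAA occurred in all 6 windows, as it did in 93.4% of 32851 promoter windows of the same length. AGGAAG was found in 2 of the 6, against 29.5% of all windows. Cpxm2 held it once, at positions -146 to -141 from the start, and Chrm3 held it at -89 to -84 and at -35 to -30. CCGGAA was found in 1 of the 6, Atp2a3 at -45 to -40, against 12.0% of all windows. The number of GGAA cores ranged from 1 (Phlda2, Atp2a3, Ildr2) to 3 (Cpxm2, Muc4, Chrm3), and the median over all windows was 3. These shares are descriptions of letters in short windows, not of binding.

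As deposited, the largest differences of the set belonged to a surface peptidase, a secreted carboxypeptidase-like protein and a matrix ligand of integrins. The order of the first 2 rests on dim wild type values: with values floored at each array's median Dpep2 was at 0.59 and Cpxm2 at 0.54, under Edil3 (1.21), Phlda2 and Tmem171 (0.98), Chrm3 (0.65) and Ndnf (0.60). Dpep2 encodes a dipeptidase anchored in the plasma membrane that converts leukotriene D4 to leukotriene E4. Its brighter probe set read 6.29 in the wild type pool and 8.19 in the knockout pool, which is 1.90 higher (3.73-fold) and the second largest of all measured genes. The other Dpep2 probe set, annotated through cDNA clones and not through the RefSeq transcripts, stood at 6.44 and 7.14, a difference of 0.70 (1.63-fold), and both of its values lay under the array medians. Both probe sets were thus higher in knockout, by sizes 1.20 apart on the log2 scale. Among 618 measured genes with 2 probe sets the median gap was 0.04 and the 90th percentile 0.18, and 0 genes had a larger gap than Dpep2. Dpep2 was chosen for a large difference and most measured genes differed little, so the place of its gap carries no information.

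Cpxm2 encodes a secreted member of the carboxypeptidase family that carries a discoidin domain. It stood at 6.51 in the wild type pool and 8.15 in the knockout pool, a difference of 1.63 (3.10-fold), from 1.09 below the wild type median to 0.56 above the knockout median. Edil3, also called Del1, encodes a matrix protein with epidermal growth factor repeats and discoidin domains that binds integrins with an alpha v chain. It stood at 8.17 and 9.38, a difference of 1.21 (2.31-fold), and was the only gene of the 10 that was both above 2-fold and above the median on both arrays. The RefSeq gene table lists names of the Sox2-cre transgene among the synonyms of Edil3. The labels name no Cre line, and a relation of that entry to the value was not tested. Ndnf encodes a secreted glycoprotein with fibronectin type III domains, first described as a neurotrophic factor. It stood at 10.48 and 11.08, a difference of 0.60 (1.52-fold), the smallest of the 10.

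Phlda2 encodes a small pleckstrin homology domain protein that restrains placental growth and is expressed from the maternal allele. It stood at 8.31 in the wild type pool and 9.29 in the knockout pool, a difference of 0.98 (1.97-fold), with both values above the array medians. Tmem171, a transmembrane protein whose function is little known, stood at 9.27 and 10.25, also a difference of 0.98 (1.97-fold). These 2 genes lay just under the 2-fold limit.

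Muc4, Ildr2, Atp2a3 and Chrm3 differed by 0.65 to 0.78, and the first 3 of them had dim wild type values. With values floored at each array's median these 3 were at 0.45, 0.28 and 0.22. Muc4 encodes a membrane-tethered mucin of epithelia that binds the receptor ErbB2. It stood at 7.29 in the wild type pool and 8.05 in the knockout pool, a difference of 0.77 (1.70-fold). Ildr2 encodes an immunoglobulin-like membrane protein of the angulin family, which marks the corners where 3 epithelial cells meet. It stood at 7.11 and 7.89, a difference of 0.78 (1.72-fold). Atp2a3 encodes SERCA3, a pump that moves calcium into the endoplasmic reticulum. It stood at 7.04 and 7.82, a difference of 0.78 (1.72-fold). All 3 lay under the wild type median, and 0.24 to 0.47 above the knockout median. Chrm3 encodes the M3 muscarinic acetylcholine receptor, which acts through Gq proteins and drives airway smooth muscle contraction and gland secretion. It stood at 8.33 and 8.98, a difference of 0.65 (1.57-fold), above the median on both arrays.

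Among all measured genes the 10 held ranks between 2 and 18 by difference, and 9 other measured genes were also at least 1.5-fold higher. Sftpb (1.91), Lamp3 (1.42) and Anxa1 (1.39) were left out as surfactant and annexin genes. The other 6 met the same limit without being among the 10: the retinol transporter gene Stra6 (0.70), the Y-linked Uty (0.64), the glutathione transferase gene Gsta4 (0.64), Mal (0.63), Sec14l4 (0.61) and the X-linked Egfl6 (0.59). With only 2 arrays these are also the genes whose pattern is most like that of the 10. Nearest to the limit, Ndnf (0.60) and Egfl6 (0.59) lay inside it, and Syt5 (0.58) and Gal (0.56) outside it. A further 9 genes reached 1.5-fold but did not count as measured, among them Kcnk9 (0.73) and the X-linked Nup62cl (0.86).

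**Figure D2:**
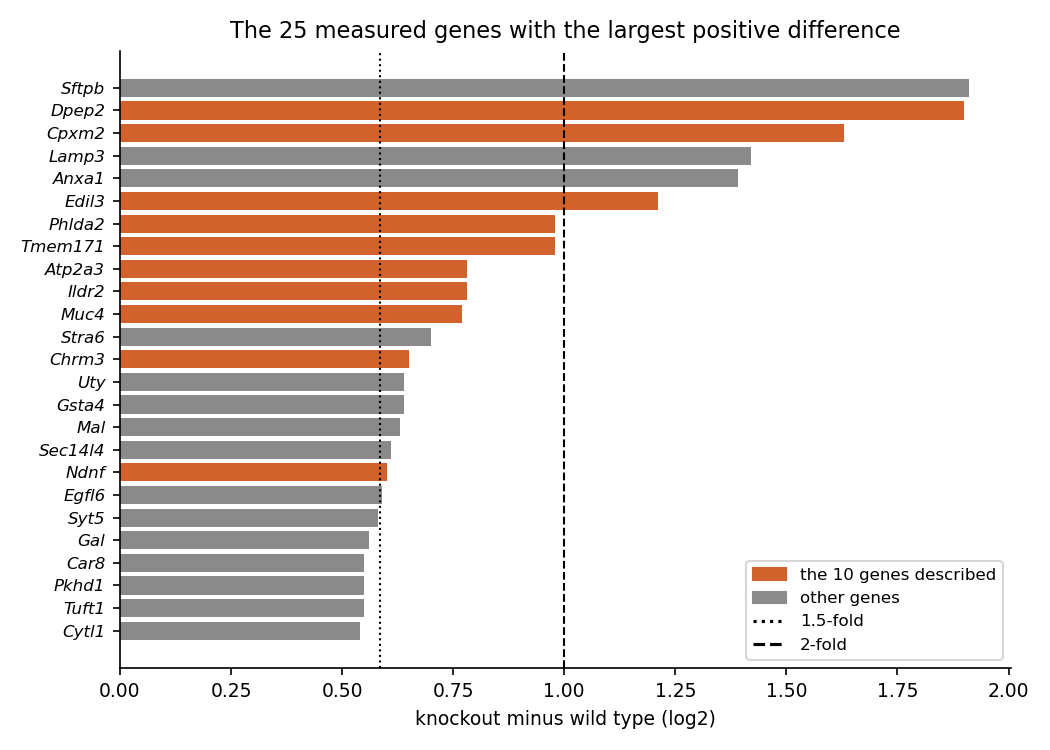
Log2 difference of knockout minus wild type (x axis) of the 25 measured genes with the largest positive differences, with the 10 genes described in orange, other genes in grey and the limits of 1.5-fold and 2-fold as dotted and dashed lines. The 10 genes lie between Dpep2 at 1.90 and Ndnf at 0.60, interleaved with Lamp3, Anxa1, Stra6, Uty, Gsta4, Mal and Sec14l4.

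Genes listed as sharing a family, a pathway or an imprinted domain with 8 of the 10 did not reach 1.5-fold in the same direction, and no list was made for Tmem171 or Ndnf. In the 9 lists, 72 of 115 matched genes were measured, with 22 above 0, 34 below 0 and 16 at exactly the same value in both pools. None of the 72 was at least 1.5-fold higher and 1 was at least 1.5-fold lower, where 0.172% and 0.163% of all measured genes were. Their median was 0.00, as over all measured genes, of which 25.7% were higher and 47% lower at any size (60.7% and 39.3% with equal array medians). At the share of 0.172%, 72 genes would hold 0.124 genes on average, so a count of 0 does not set these relatives apart from other genes. Other scalings moved the median of all measured genes by up to 0.017, so genes this close to 0 can change side in the counts that follow.

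Around Dpep2, 3 of 11 matched genes of leukotriene and glutathione metabolism were measured, all of them lower. Cysltr1, a receptor for cysteinyl leukotrienes, differed by -0.37 (from 7.73 to 7.36) and the aminopeptidase gene Anpep by -0.13. The other dipeptidase genes Dpep1 (6.19 and 6.23) and Dpep3 (6.20 and 6.36) were under the median on both arrays. All 7 carboxypeptidase relatives of Cpxm2 were measured, 2 of them higher, 3 lower and 2 equal. Cpn1, the catalytic chain of plasma carboxypeptidase N, stood at 8.24 in the wild type pool and 7.26 in the knockout pool, a difference of -0.98. Cpm differed by 0.16, and Cpxm1, the closest relative by name, by -0.15 (from 9.04 to 8.89).

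Of 10 measured genes with discoidin domains or encoding integrin partners of Edil3, 3 were higher, 5 lower and 2 equal. The collagen receptor genes Ddr2 and Ddr1 differed by -0.24 and 0.10. Mfge8, which shares the domain layout of Edil3, differed by -0.07 (from 10.86 to 10.79), and Itgav, which encodes the alpha v chain, was equal at 10.25 on both arrays. Around Phlda2, 11 relatives and genes of its imprinted domain on distal chromosome 7 were measured, of which 6 were higher, 1 lower and 4 equal. Slc22a18, a transporter gene of the same domain expressed from the maternal allele, differed by 0.28 (from 7.37 to 7.65). Cdkn1c, a growth inhibitor gene of that domain also expressed from the maternal allele, differed by 0.14 (from 11.23 to 11.37). Other genes listed for that domain differed little, with Kcnq1 at 0.01, Tssc4 at 0.03, Cd81 at -0.02, and Nap1l4, Cars and Osbpl5 equal. Igf2, which is expressed from the paternal allele, stood at 13.14 and 13.16, and the family members Phlda1 and Phlda3 differed by 0.09 and 0.00. Of 13 measured imprinted genes elsewhere 3 were higher and 7 lower, with Sgce at -0.18 and Grb10 at -0.11.

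Of 12 measured calcium pump and store genes 4 were higher, 5 lower and 3 equal. Atp2c2, which encodes a calcium and manganese pump of the secretory pathway in epithelia, had the largest difference of the 72 relatives in the direction of the 10, 0.50 (from 7.14 to 7.64), from a value under the wild type median. Itpr3, which encodes a receptor that releases calcium from the store that Atp2a3 fills, differed by 0.29 (from 8.73 to 9.03). Atp2a2, the widely expressed pump of the same family, was equal at 11.74 on both arrays. Of 5 measured genes of tricellular and tight junctions 2 were higher, Ocln by 0.18 and the angulin gene Lsr by 0.11. Of 4 measured mucin and partner genes Muc1 differed by -0.27 (from 9.11 to 8.85), and Erbb2, the receptor that Muc4 binds, by 0.05. The 9 other mucin genes were under the limit for measured genes. Of 7 measured cholinergic genes 6 were lower, among them Bche at -0.13 and the muscarinic receptor gene Chrm2 at -0.04, while the phospholipase gene Plcb1, which acts downstream of Chrm3, was higher by 0.21.

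**Figure D3:**
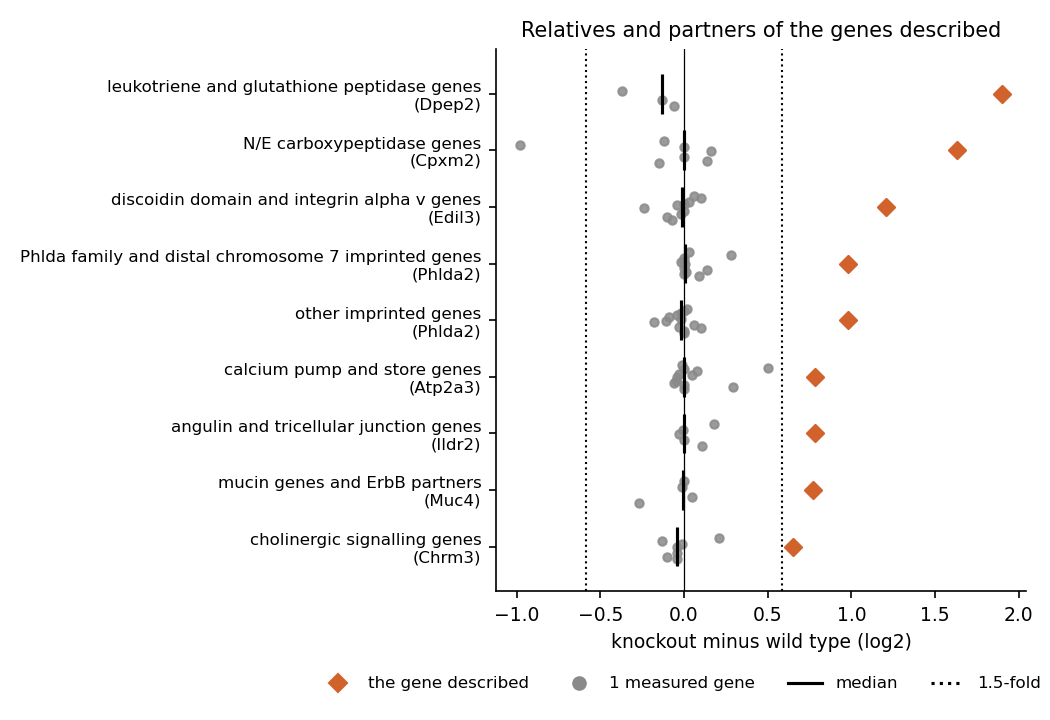
Log2 difference of knockout minus wild type (x axis) of each measured relative or partner gene (grey points), with the median of each of the 9 lists (black bar), the gene it was built around (orange diamond) and 1.5-fold in either direction (dotted lines). The diamonds lie right of 1.5-fold because their genes were chosen so, and the grey points reach from -0.98 (Cpn1) to 0.50 (Atp2c2).

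The neighbours of the 10 genes in the genome were taken from the gene order of the RefSeq table for GRCm38.p6. Of the 100 measured neighbours, 5 on each side of each gene, 29 were higher, 41 lower and 30 equal, and 0 reached 1.5-fold in either direction. Of all measured genes 25.7% were higher and 47% lower, and 0.172% and 0.163% were at least 1.5-fold higher and lower. A count of 0 in 100 thus does not set the neighbours apart from other genes. The neighbours ranged from -0.39 to 0.28, with a median of 0.00, as over all measured genes. The largest of each set were Slc7a6 (-0.12) near Dpep2, Hmx2 (0.13) near Cpxm2, Vcan (-0.30) near Edil3, Slc22a18 (0.28) near Phlda2 and Enc1 (-0.19) near Tmem171. Near the others they were Ctns (-0.05) for Atp2a3, Rcsd1 (-0.39) for Ildr2, Ubxn7 (-0.06) for Muc4, Edaradd (-0.17) for Chrm3 and Mmrn1 (-0.38) for Ndnf. Around Ildr2 8 of 10 neighbours were lower, the most of any set, where 47% of all measured genes were lower.

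Chromosome 13 held 3 of the 10 genes (Edil3, Tmem171, Chrm3) among its 410 measured genes, and chromosome 7 held 2 (Cpxm2, Phlda2) among 822. The genes on 1 chromosome were not adjacent: 37 measured genes lay between Edil3 and Tmem171, 282 between Chrm3 and Edil3, and 84 between Cpxm2 and Phlda2. Without the 3 genes the median of chromosome 13 was -0.005. Of the 10, Muc4 shares chromosome 16 with Etv5, with 38 measured genes between them, and Atp2a3 shares chromosome 11 with Etv4, with 299 between them. The other 8 lie on chromosomes of neither targeted gene. Whether sequence linked to the targeted genes plays a part for Muc4 and Atp2a3 was not tested.

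**Figure D4:**
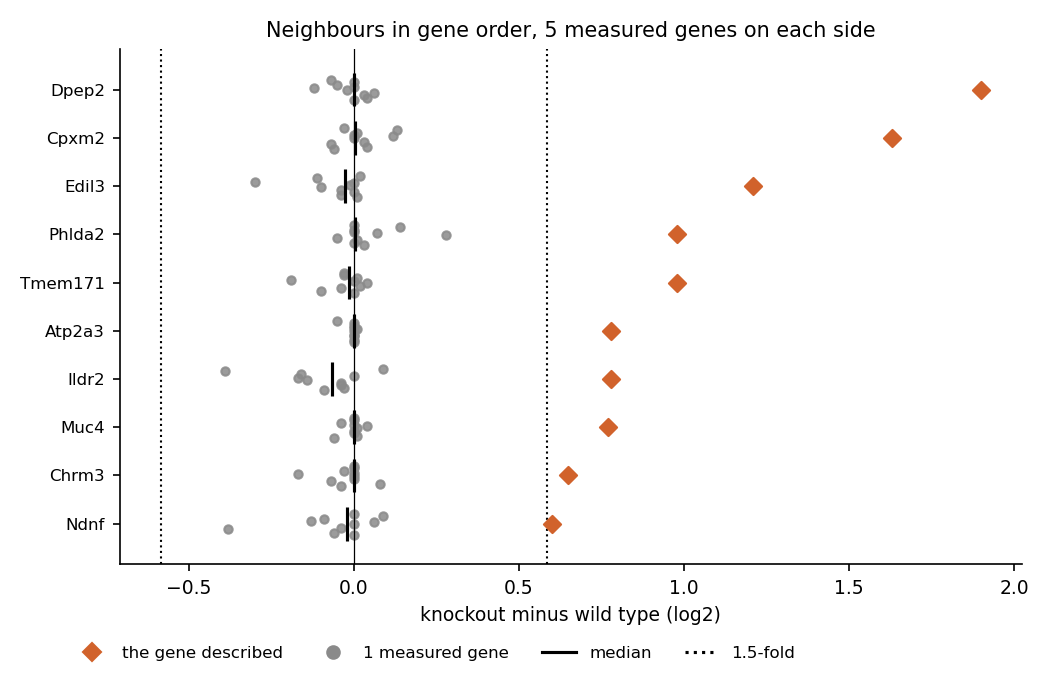
Log2 difference of knockout minus wild type (x axis) of each of the 10 genes (orange diamonds) and of the 5 nearest measured genes on each side in gene order (grey points, median as a black bar), with 1.5-fold in either direction dotted. All 100 neighbours lie between -0.39 and 0.28. The diamonds lie right of 1.5-fold because the 10 genes were chosen so.

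In RNA of whole lungs, more cells of a type and more RNA per cell cannot be told apart, so markers of cell types are given beside the 10 genes. Lung epithelium markers were present on both arrays, with Nkx2-1 at 10.58 and 10.70 and Epcam at 10.38 and 10.47, as were lung mesenchyme markers, with Tbx4 at 11.70 and 11.68. Of all measured genes 25.7% were higher and 47% lower (60.7% and 39.3% with equal array medians). Of 10 epithelial markers, all measured, 7 were higher and 3 lower. The median was 0.095 and the largest size that of Sftpc (-1.12). Their mean level was 10.57 in wild type and 10.56 in knockout. All 4 measured of 8 proximal airway markers were higher (median 0.233, mean level of all 8 from 7.50 to 7.65). The median was 0.066 over all 8 and 0.023 with the floor at the array medians. Aldh1a7 differed by 0.41, and the secretory marker Scgb1a1 stood at 4.26 on both arrays. Of 7 measured mesothelial markers 5 were higher, Upk3b was lower (-0.09) and Wt1 was equal. Their median was 0.055, the largest size that of Krt19 (0.45), and the mean level of the matched list went from 8.69 to 8.80. No marker in these 3 lists was at least 1.5-fold higher, as few measured genes were (0.172%). The 10 genes were chosen above that limit, so a comparison of their sizes with the markers carries no information.

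Smooth muscle and mesenchyme markers went the other way. As deposited 47% of all measured genes were lower, and 39.3% with equal array medians. All 8 measured smooth muscle markers were lower (median -0.242, Synpo2 at -0.49, mean level from 10.14 to 9.91). Chrm3, whose receptor acts in airway smooth muscle and glands, was chosen for being higher (0.65), so its direction adds nothing here. All 10 mesenchyme markers were lower (median -0.096, Foxf1 at -0.40, mean level from 11.16 to 11.02). Endothelial markers were lower or equal (7 lower, 2 equal, Pecam1 at -0.08), with a median of -0.016 that is within the shift of 0.017 by scaling. All 5 measured leukocyte markers of 10 were lower (median -0.102, Mrc1 at -0.17), and all 4 measured erythroid markers of 6 were lower (median -0.242, Slc4a1 at -0.26).

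Markers of tissues next to the lung were mostly under the limit for measured genes. Of 9 matched thymocyte markers 1 was measured, Ptcra at 7.51 and 7.59, and the mean level of the 9 was 5.97 in wild type and 6.12 in knockout. Of 9 markers of oesophagus and stratified epithelium 1 was measured, Sfn (0.27), with Krt5 at 6.51 on both arrays, and the mean level of the 9 went from 6.70 to 6.78. Of 9 heart and skeletal muscle markers 4 were measured (median 0.001, Myh7 at 0.30). Of 8 tracheal cartilage markers 5 were measured, 3 of them lower (median -0.192, Cnmd at -0.41), and the median over all 8 was -0.02. Single or few measured markers stood for neurons (2, Stmn2 at -0.20), neuroendocrine cells (1, Uchl1 at -0.05) and liver (1, Apoa1 at -0.08). The part of tissue composition in the values of the 10 genes was not tested.

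**Figure D5:**
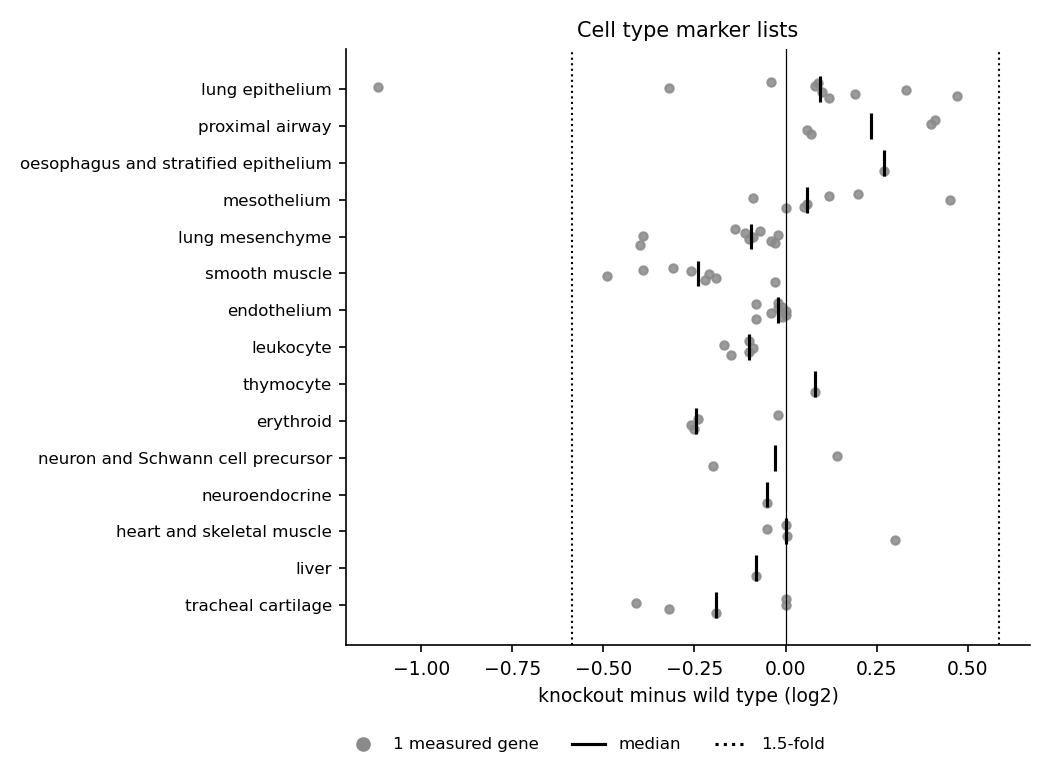
Log2 difference of knockout minus wild type (x axis) of each measured marker (grey points) in 15 cell type lists, with the median of each list as a black bar and 1.5-fold in either direction dotted. Smooth muscle, mesenchyme, leukocyte and erythroid markers all lie left of 0 and proximal airway markers right of it, and no marker reaches 1.5-fold higher.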

How the data were processed

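Per the labels' protocols, lung RNA was extracted on columns and its biotin-labelled target read on Affymetrix arrays. The authors deposited 1 value per probe set and array for 35557 probe sets, read here as log2 from its range (2.72 to 14.4 in wild type). The log base, summary method and normalization are not given in the sources used here. Gene names came from the platform's annotation table (21789 with 1 symbol, 1621 with several, 12147 with none). A gene was represented by its probe set with the highest mean, and values were used as deposited. Genes named are the 10 genes, Etv4, Etv5, Xist, Uty, Eif2s3y and Kdm5d, and other measured genes at least 1.5-fold higher or next to that limit. The largest differences of each list and the largest neighbour are named too. Further relatives and markers named were chosen after their values were seen. The 10 genes and all lists were chosen with earlier results of these data known. The steps were tested on simulated data. Alternatives were 3 scalings, 2 probe set rules, 3 level filters, 2 floors and 10 neighbours per side. Python 3.11.15, numpy 2.4.6, pandas 2.3.3, statsmodels 0.14.6 and matplotlib 3.10.9 were used.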

Additional observations from a re-analysis of the deposited data

How the results depend on the processing

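Leaving out an array was not possible with 1 in each group. No paired analysis was possible because each group has 1 sample. All 10 differences stayed positive under the 3 scalings, 2 probe set rules and 2 floors. A difference counted as moved when it changed by 0.18 or more, the 90th percentile of the gap between probe sets of 1 gene, and a count when it changed by over 1.5 times. Of 110 alternative values of counts and single genes 20 moved. With a floor at each array's median the differences were 0.59 for Dpep2, 0.54 for Cpxm2, 0.22 for Atp2a3, 0.28 for Ildr2 and 0.45 for Muc4, since their wild type values lay under the floor. That floor left 6 of the 10 genes at 1.5-fold and 1 at 2-fold, and 12 and 3 of all measured genes. Requiring both values at or above the median left 5 and 1 of the 10, and 10 and 2 of all. The filter at the 75th percentile left 3 and 1 of the 10, and 8 and 2 of all; both filters test fewer genes. Dpep2 was 1.30 as the mean of its probe sets and 0.70 on the other one. Quantile scaling put 5 of the 10 and 8 of all measured genes at 2-fold, where Phlda2 and Tmem171 reached the limit. The Edil3, Phlda2, Tmem171, Chrm3 and Ndnf differences moved by at most 0.03. Scaling moved the median of measured genes by at most 0.017, and list medians nearer to 0 carry no direction. Those of the discoidin, other imprinted and mucin lists were below 0 as deposited and above 0 under quantile and loess scaling. The other imprinted median went from -0.019 to 0.007 with quantile scaling, so medians slightly beyond 0.017 can change side too. The tracheal cartilage median was -0.017 with the floor at the median and -0.096 with both values at or above it, and lists with under 3 measured genes have no such value. Dim wild type signals limit the sizes for 5 of the 10 genes.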
